A study of Acipenser schrenckii with 6 samples.

Results

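In the gut of Amur sturgeon, 67 of 82023 annotated features carried a product name of the apolipoprotein and chylomicron assembly machinery. Members were chosen by product name, with earlier results of these data known. The name had to hold apolipoprotein, ice-structuring protein, microsomal triglyceride transfer protein (MTP), diacylglycerol O-acyltransferase, 2-acylglycerol O-acyltransferase, perilipin, GTP-binding protein SAR1, platelet glycoprotein 4, scavenger receptor class B or NPC1-like intracellular cholesterol transporter. The word apolipoprotein gave 32 of them, and platelet glycoprotein 4 gave none. Fish of the species Acipenser schrenckii, of similar genetic background per the series' description, lived in net cages ahead of their release and received either fresh Limnodrilus, a tubificid worm, or commercial feed for 30 days. The worms had been reared in the water source of the fish so that they would carry microbes of that environment, and the question asked was whether this diet alters gut gene expression. Poly(A) RNA was sequenced in 3 gut libraries per diet. No label states whether 1 fish or a pool gave a library, nor age or sex, so the p-values reflect library-to-library spread that may be technical.

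Fat absorbed by enterocytes is re-esterified to triglyceride by the acylglycerol acyltransferases at the endoplasmic reticulum, stored for a time in droplets coated by perilipins, and loaded by MTP onto apolipoprotein B to form chylomicrons. SAR1 GTPases build the COPII coat under which these particles leave the endoplasmic reticulum. The small exchangeable apolipoproteins A, C and E bind the particle surface and steer its later metabolism in blood.

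Values are FPKM, fragments scaled to feature length and library total, and in each list below they stand in the order of libraries 1, 2 and 3 of the diet named. Read totals recovered from the table were 13.9, 19.7 and 17.0 M in the Limnodrilus libraries and 10.3, 9.95 and 10.5 M in the commercial feed libraries, so depth and diet differed together. The commercial feed libraries stood far apart from each other. Brush-border markers of enterocytes, 25 loci such as villin and aminopeptidase N, summed to 2265.3, 9505.1 and 3957.5 FPKM with Limnodrilus and to 94.4, 435.8 and 3559.7 FPKM with commercial feed. Smooth muscle markers, also 25 loci, summed to 3647.2, 2514.1 and 2710.8 FPKM with Limnodrilus and to 8815.6, 5705.3 and 767.1 FPKM with commercial feed. By these sums commercial feed libraries 1 and 2 were low in enterocyte and high in muscle markers, and library 3 was the reverse. Single muscle loci differed, as 1 named after its values were seen shows. Transgelin LOC117397469 had 183.1, 188.2 and 167.7 FPKM with Limnodrilus and 294.8, 74.7 and 22.8 FPKM with commercial feed. Single brush-border loci differed too, as 2 named after their values were seen show. Villin-1 LOC117426246 had 62.8, 134.2 and 78.2 FPKM with Limnodrilus and 1.49, 2.12 and 50.1 FPKM with commercial feed. Meprin A subunit beta-like LOC117399984 had 43.1, 116.2 and 79.9 FPKM with Limnodrilus and 3.09, 72.6 and 944.3 FPKM with commercial feed. In such bulk tissue, fewer cells of a type and less RNA per cell cannot be told apart.

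Of the 67 members, 50 reached an average of 1 FPKM across the 6 libraries and were tested. With Limnodrilus 17 rose, 1 fell and 32 missed the threshold (limma-trend on log2(FPKM + 1), Benjamini-Hochberg adjusted p under 0.05 over all 23644 features tested). The same test called 14% of all features higher and 3.64% lower, against 34.0% of the tested members higher. The median log2 fold change, Limnodrilus minus commercial feed, was 1.98 over the tested members and 0.24 over all features. All 3 Limnodrilus libraries lay above all 3 commercial feed libraries for 25 of the 50 members and for 28.4% of all features, and the reverse held for 2 members and for 11.5% of all features. Scaling by median-of-ratios size factors brought the median of all features to 0.009 and the share of higher among all calls to 60.0%, against 79.4% on the deposited scale, and left 13 members higher and 1 lower. These counts describe members that passed a filter on level, which a member can pass through 1 diet alone.

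The number of members called depended on which library was present. Without commercial feed library 3, 35 members rose, among 20.7% of all features. Without commercial feed library 1 the number higher was 11, among 10.3% of all features, and without library 2 it was 8, among 6.26%. Without Limnodrilus libraries 1, 2 and 3 in turn it was 7, 7 and 3, among 2.79%, 2.71% and 2.38% of all features. Without commercial feed libraries 1 and 2 together, the median log2 fold change of all features was 0.081. It was 0.57 at apolipoprotein B locus LOC117402544 and 2.14 at SAR1b locus LOC117413507, against 3.32 and 2.51 in the main test. Commercial feed library 3 was the highest of its diet for 39 of the 50 tested members and for 49.2% of all features, and Limnodrilus library 2 was the highest of its diet for 36 of the 50 and for 28.7% of all features.

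**Figure D1:**
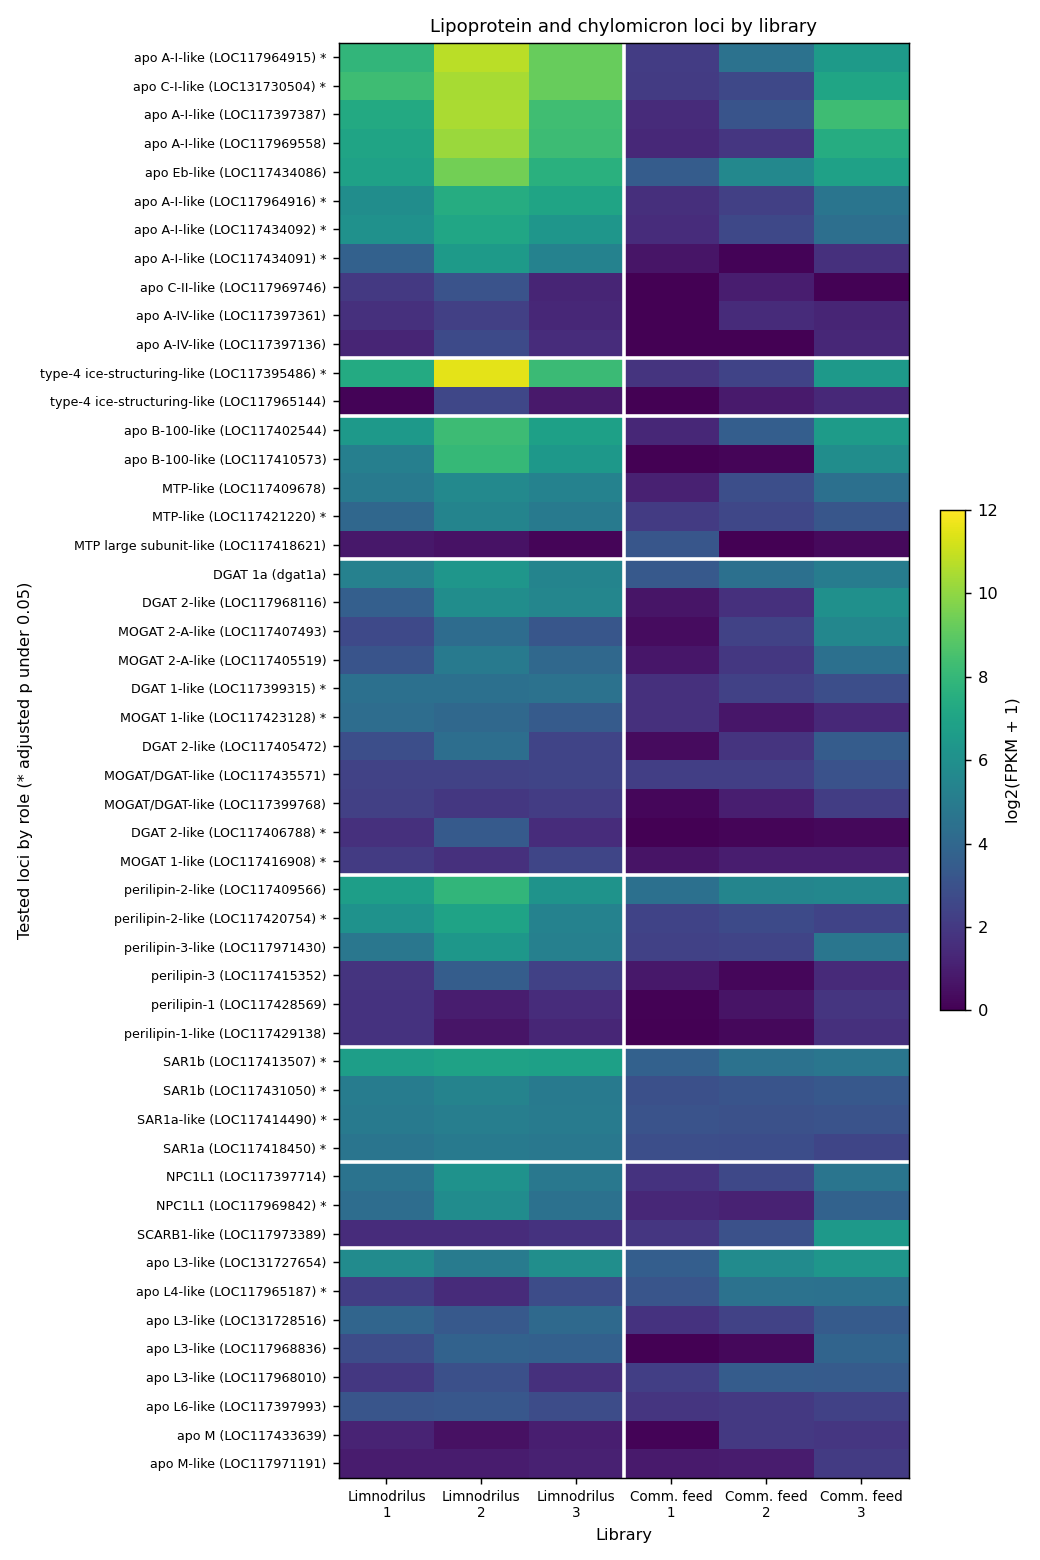
Levels of the 50 tested members, 1 line per locus ordered by role, in the 3 Limnodrilus libraries (left) and the 3 commercial feed libraries (Comm. feed, right). DGAT stands for diacylglycerol O-acyltransferase, MOGAT for 2-acylglycerol O-acyltransferase, MTP for microsomal triglyceride transfer protein, SCARB1 for scavenger receptor class B member 1 and NPC1L1 for NPC1-like intracellular cholesterol transporter 1. Colour, dark for low and yellow for high, gives log2(FPKM + 1) and an asterisk marks loci that passed the test, 17 higher and 1 lower with Limnodrilus. Commercial feed libraries 1 and 2 are dark across most loci of the exchangeable apolipoproteins, and commercial feed library 3 is nearer to the Limnodrilus libraries.

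Exchangeable apolipoproteins were the most abundant role in every Limnodrilus library. Their 17 loci summed to 1089.2, 6846.4 and 2246.3 FPKM with Limnodrilus and to 24.9, 96.4 and 869.6 FPKM with commercial feed, without overlap between the diets. They made up 52.6%, 59.3% and 64.7% of all member FPKM with Limnodrilus, against 15.5%, 25.6% and 50.3% with commercial feed. Of the 11 tested loci 5 rose (45.5%, against 14% of all features) and 6 missed the threshold. The median log2 fold change of the class was 3.93.

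Apolipoprotein A-I, the main structural protein of high-density lipoprotein, had 6 tested loci, and 4 of them rose. The most abundant, LOC117964915 (NW_026708128.1:38213-41990), had 234.8, 1715.4 and 595.9 FPKM in the Limnodrilus libraries, against 3.38, 22.0 and 91.6 FPKM in the commercial feed libraries, a log2 fold change of 4.89 ± 1.14 (SE, n = 3 per diet; limma adjusted p = 0.0272). Its neighbour LOC117964916 had 57.9, 174.0 and 125.9 FPKM with Limnodrilus, against 2.08, 3.8 and 24.1 FPKM with commercial feed (3.93 ± 0.799; limma adjusted p = 0.0191). In both, every Limnodrilus library lay above every commercial feed library, as for 28.4% of all features. Commercial feed library 3 was the highest of its diet in both. LOC117434092 on NW_026708270.1 had 65.7, 136.4 and 78.6 FPKM with Limnodrilus, against 1.9, 5.03 and 19.8 FPKM with commercial feed (3.65 ± 0.703; limma adjusted p = 0.0164). LOC117434091 beside it had 12.1, 93.3 and 39.2 FPKM with Limnodrilus, against 0.592, 0.0683 and 2.2 FPKM with commercial feed (4.38 ± 0.735; limma adjusted p = 0.0123), with 9, 1 and 34 commercial feed reads. Both pairs of neighbours kept the diets apart.

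The other A-I loci did not pass. LOC117397387 on NC_081228.1 had 155.4, 1431.6 and 316.2 FPKM with Limnodrilus and 1.8, 7.54 and 307.7 FPKM with commercial feed (4.41 ± 1.65; limma adjusted p = 0.104). LOC117969558 on NC_081227.1 had 128.5, 1189.7 and 295.3 FPKM with Limnodrilus and 1.6, 2.67 and 173.7 FPKM with commercial feed (4.91 ± 1.59; limma adjusted p = 0.0697). At both loci commercial feed library 3 lay above Limnodrilus library 1, so the diets overlapped.

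Among apolipoproteins of the C and E classes, C-I, an activator of plasma cholesterol esterification, rose. Locus LOC131730504 (NW_026708270.1:46004-48098) had 311.3, 1389.9 and 592.2 FPKM with Limnodrilus, against 3.31, 5.07 and 132.2 FPKM with commercial feed (5.39 ± 1.26; limma adjusted p = 0.0276). Apolipoprotein Eb-like LOC117434086, a fish homologue of the receptor ligand apolipoprotein E, had 117.1, 698.2 and 197.1 FPKM with Limnodrilus and 10.3, 47.5 and 115.0 FPKM with commercial feed. It did not pass (2.67 ± 0.947; limma adjusted p = 0.0898), although its lowest Limnodrilus value, 117.1, lay just above its highest commercial feed value, 115.0. Apolipoprotein C-II-like LOC117969746, the cofactor of lipoprotein lipase, was low, with 3.03, 7.39 and 1.35 FPKM with Limnodrilus and 0, 0.926 and 0.0627 FPKM with commercial feed (limma adjusted p = 0.0542). The A-IV loci LOC117397361 and LOC117397136, of a class that is a major chylomicron surface protein in mammals, stayed at or below 5.57 FPKM in every library and did not pass (limma adjusted p = 0.253 and 0.114).

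Calls of this class were lost to different degrees when 1 library was left out. Over all features 14% were called higher in the main test. Without 1 Limnodrilus library this was 2.38% to 2.79%, and without commercial feed library 2 it was 6.26%. Without any 1 of the Limnodrilus libraries, or without commercial feed library 2, the calls of LOC117964915, LOC117964916 and LOC117434092 were lost (limma adjusted p of 0.0521 to 0.103). Their log2 fold changes in these fits were 4.16 to 5.59, 3.59 to 4.37 and 3.35 to 3.87. The call of LOC131730504 was lost in the same cases and without commercial feed library 1 (0.0635 to 0.108), and that of LOC117434091 without Limnodrilus library 3 (0.0555). Without the filter on level, LOC117964915 and LOC131730504 lost theirs (0.0558 and 0.0567). Without commercial feed library 3 the commercial feed means of LOC117964915, LOC117964916, LOC117434092, LOC117434091 and LOC131730504 were 12.7, 2.94, 3.47, 0.33 and 4.19 FPKM, against 39.0, 9.99, 8.93, 0.954 and 46.9 FPKM with it. Without Limnodrilus library 2 the Limnodrilus means of LOC117964915, LOC117434091 and LOC131730504 were 415.3, 25.6 and 451.7 FPKM, against 848.7, 48.2 and 764.5 FPKM with it.

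Apolipoprotein loci lay in tight groups on unplaced sequences. NW_026708270.1 held A-I, A-I, Eb, C-I and C-II loci within 35.0 kb, and NW_026708128.1 held C-II, C-I, Eb, A-I and A-I loci within 34.4 kb, which is the same set in mirrored order. The groups differed in which loci gave reads. On NW_026708270.1 all 5 loci had reads in every Limnodrilus library, and the C-II locus LOC117969746 had 0, 14 and 1 reads with commercial feed. On NW_026708128.1 both A-I loci were abundant, but the C-II locus LOC131696845 was at 0 in all 6 libraries, the Eb locus LOC117969748 had 2 reads in all and the C-I locus LOC131729697 had 27. A further sequence, NW_026707654.1, held C-II, C-I and Eb loci (LOC117434107, LOC117434109 and LOC131727996) at 0 in all 6 libraries. These 3 loci and those of NW_026708128.1 match in annotated length (967, 614 and 1516 bases for C-II, C-I and Eb) and in genomic span (1903, 2267 and 4062 bases). How reads that fit several places were treated is not given in the sources used here, so the values of such copies, including those listed at 0, are uncertain.

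**Figure D2:**
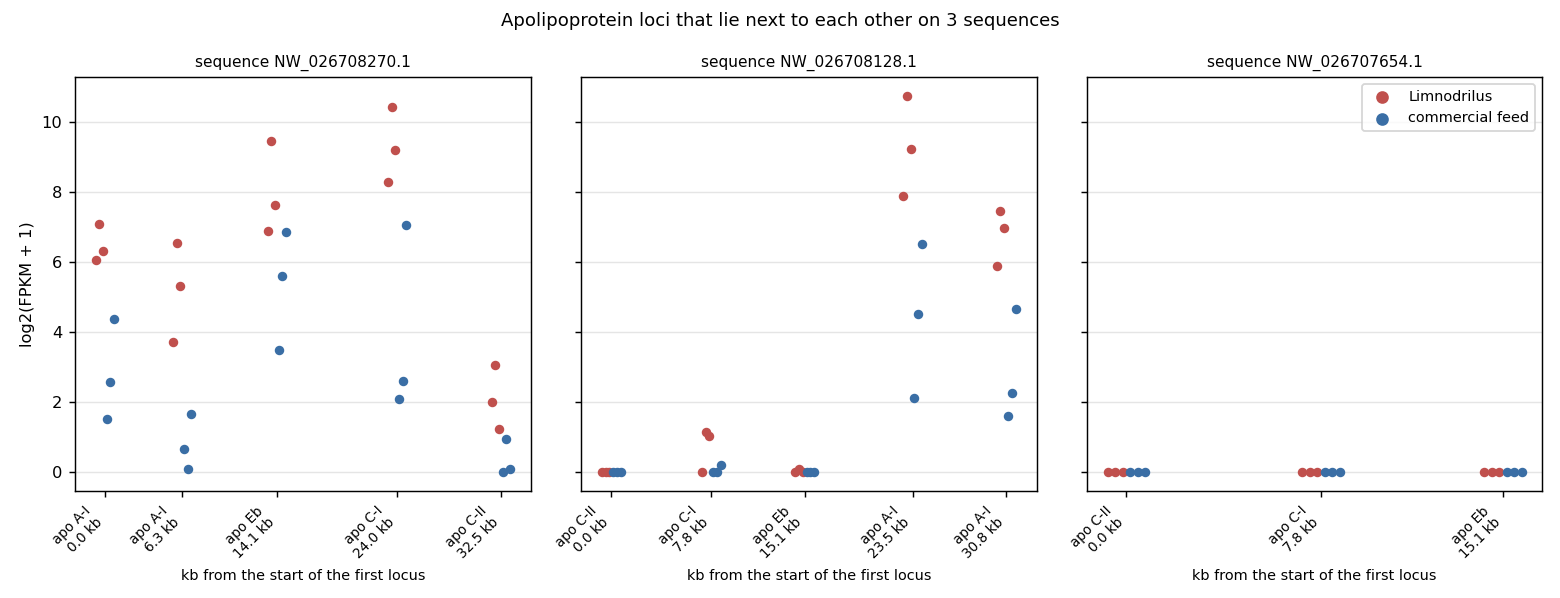
Levels at the apolipoprotein loci of 3 unplaced sequences, as log2(FPKM + 1) per library, placed by distance in kb from the start of the first locus. Red points are Limnodrilus libraries and blue points commercial feed libraries. The C-II, C-I and Eb loci lie at or near 0 on NW_026708128.1 and at 0 on NW_026707654.1, while A-I loci on the first 2 sequences hold the diets apart.

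Type-4 ice-structuring proteins, small helical proteins named for antifreeze activity described in a sculpin and related in sequence to exchangeable apolipoproteins, had 2 loci. LOC117395486 (NC_081220.1:14363134-14365874) had 160.6, 2908.5 and 287.3 FPKM with Limnodrilus, against 2.54, 4.26 and 85.7 FPKM with commercial feed (5.45 ± 1.43; limma adjusted p = 0.0384), the highest level of any member in a single library. Limnodrilus lay above without overlap, as for 28.4% of all features, but the Limnodrilus libraries spanned more than an order of magnitude. Its call was lost without any library other than commercial feed library 3 (limma adjusted p of 0.0681 to 0.121), and also with median-of-ratios scaling (0.0509) and without the filter on level (0.0754). The Limnodrilus mean was 223.9 FPKM without library 2, against 1118.8 FPKM with it, and the commercial feed mean was 3.4 FPKM without library 3, against 30.8 FPKM with it. The second locus, LOC117965144, had 0.096, 4.87 and 0.781 FPKM with Limnodrilus and 0, 0.803 and 1.65 FPKM with commercial feed, and did not pass (limma adjusted p = 0.686).

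Apolipoprotein B, the backbone protein of which each chylomicron carries a single copy, had 2 loci, and neither passed. LOC117402544 on NC_081193.1 had 85.8, 302.3 and 110.3 FPKM with Limnodrilus and 1.55, 11 and 95.4 FPKM with commercial feed (3.32 ± 1.2; limma adjusted p = 0.0951). LOC117410573 on NC_081194.1 had 35.5, 257.8 and 82.4 FPKM with Limnodrilus and 0.0197, 0.129 and 57.1 FPKM with commercial feed (4.51 ± 1.53; limma adjusted p = 0.0801). In both, commercial feed library 3 lay between Limnodrilus libraries 1 and 3. The second locus was nearly silent in the other commercial feed libraries, with 3 and 19 reads, against 8850 reads in library 3. The ratio of LOC117402544 to LOC117410573 was 2.42, 1.17 and 1.34 with Limnodrilus and 79.0, 85.1 and 1.67 with commercial feed, so commercial feed library 3 lay among the Limnodrilus values. Without commercial feed library 3 both loci passed, with log2 fold changes of 4.69 and 6.43 (limma adjusted p = 0.0105 and 0.00726).

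MTP, which transfers triglyceride to nascent apolipoprotein B, rose at 1 of 3 loci. With the apolipoprotein B loci included, 1 of 5 tested loci rose, against 14% of all features called higher. LOC117421220 on NC_081189.1 had 14.9, 41.7 and 29.5 FPKM with Limnodrilus, against 3.18, 4.85 and 8.29 FPKM with commercial feed (2.17 ± 0.478; limma adjusted p = 0.0234). The same-named LOC117409678 on NC_081190.1 had 29.8, 49.2 and 38.9 FPKM with Limnodrilus and 1.13, 6.4 and 20.3 FPKM with commercial feed, and did not pass (2.51 ± 0.763; limma adjusted p = 0.059). At both loci all Limnodrilus libraries lay above all commercial feed libraries, as for 28.4% of all features. The call of LOC117421220 was lost without Limnodrilus library 2 or 3 or commercial feed library 1 or 2 (limma adjusted p of 0.0516 to 0.0885), and LOC117409678 passed without commercial feed library 3 (0.0106). The MTP large subunit-like LOC117418621 was under 1 FPKM in all but commercial feed library 1, where it had 8.4 FPKM (limma adjusted p = 0.577).

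The acyltransferases that rebuild triglyceride had 14 loci, of which 11 were tested, 4 rose and 7 missed the threshold. That is 36.4% of those tested called higher, against 14% of all features. Their median log2 fold change was 1.38. Diacylglycerol O-acyltransferase 1 (DGAT1), which adds the last fatty acid, rose at LOC117399315, with 20.7, 20.9 and 22.2 FPKM with Limnodrilus, against 2.17, 3.95 and 6.33 FPKM with commercial feed (2.19 ± 0.375; limma adjusted p = 0.0126). The Limnodrilus values of this locus were nearly equal. The more abundant dgat1a had 37.5, 77.8 and 41.0 FPKM with Limnodrilus and 9.17, 20.4 and 32.0 FPKM with commercial feed. Limnodrilus lay above without overlap, as for 28.4% of all features, and dgat1a did not pass (1.38 ± 0.518; limma adjusted p = 0.104).

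Monoacylglycerol acyltransferase 1 (2-acylglycerol O-acyltransferase 1), which makes diacylglycerol from the monoacylglycerol taken up, rose at both of its loci. LOC117423128 had 18.6, 15.4 and 9.74 FPKM with Limnodrilus, against 2.14, 0.665 and 1.64 FPKM with commercial feed (2.66 ± 0.381; limma adjusted p = 0.00914). LOC117416908 had 3.25, 2.13 and 4.76 FPKM with Limnodrilus, against 0.573, 0.961 and 0.955 FPKM with commercial feed (1.22 ± 0.335; limma adjusted p = 0.0442). At both, Limnodrilus lay above commercial feed without overlap, as for 28.4% of all features. Neither followed the pattern of a high Limnodrilus library 2 and a high commercial feed library 3. Acyltransferase 2-A, named for the form that serves the intestine in mammals, did not pass at either locus. LOC117407493 had 5.37, 17.8 and 8.15 FPKM with Limnodrilus and 0.317, 4.2 and 45.9 FPKM with commercial feed (limma adjusted p = 0.754). LOC117405519 had 7.56, 29.8 and 15.5 FPKM with Limnodrilus and 0.633, 2.84 and 20.5 FPKM with commercial feed (limma adjusted p = 0.243). Commercial feed library 3 lay above Limnodrilus libraries 1 and 3 at both 2-A loci.

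Among the DGAT2-like loci, LOC117406788 rose, with 2.19, 9.53 and 1.9 FPKM with Limnodrilus, against 0, 0.136 and 0.193 FPKM with commercial feed, where it had 0, 2 and 3 reads (2.06 ± 0.515; limma adjusted p = 0.0338). The most abundant, LOC117968116, had 11.6, 58.5 and 44.3 FPKM with Limnodrilus and 0.623, 2.22 and 64.0 FPKM with commercial feed, so that the diets overlapped (limma adjusted p = 0.275). A DGAT2-like locus neighboured a 2-A locus on NC_081196.1, within 40.5 kb, and on NC_081197.1, within 39.4 kb. Only LOC117423128 of the 4 called acyltransferase loci kept its call with each library left out in turn. LOC117399315 lost it without any 1 Limnodrilus library (limma adjusted p of 0.0557 to 0.0608), and LOC117406788 and LOC117416908 lost it without any library other than commercial feed library 3 (0.0547 to 0.156). LOC117416908 also lost it with median-of-ratios scaling (0.0519), with limma-voom on recovered reads (0.0903) and without the filter on level (0.081), and LOC117406788 in the same 3 cases (0.0548, 0.0636 and 0.0635). With the replicate number as a block LOC117416908 lost its call too (limma adjusted p = 0.0746). Without Limnodrilus library 2 the Limnodrilus mean of LOC117406788 was 2.04 FPKM, against 4.54 FPKM with it, and without commercial feed library 3 its commercial feed mean was 0.0678 FPKM, against 0.109 FPKM with it.

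Perilipins had 8 loci, of which 6 were tested and 1 rose. That is 16.7% of those tested, near the 14% of all features called higher. Perilipin-2, the droplet coat protein of most non-adipose cells, was represented by 2 expressed loci. LOC117420754 had 69.5, 125.6 and 39.5 FPKM with Limnodrilus, against 4.33, 5.42 and 4.41 FPKM with commercial feed (3.64 ± 0.451; limma adjusted p = 0.00758). LOC117409566, the more abundant, had 104.7, 235.3 and 71.1 FPKM with Limnodrilus and 20.5, 43.5 and 45.5 FPKM with commercial feed, and did not pass (1.78; limma adjusted p = 0.0585). At both loci Limnodrilus lay above commercial feed without overlap, as for 28.4% of all features. The ratio of LOC117409566 to LOC117420754 was 1.51, 1.87 and 1.8 with Limnodrilus and 4.74, 8.03 and 10.3 with commercial feed, again without overlap. This pair was 1 of 5 without overlap among 14 same-named pairs. Reads shared between copies could move the ratio, which was not tested. LOC117420754 kept its call with each library left out in turn (largest limma adjusted p 0.0424), and all 3 of its commercial feed values lay close together, library 3 included.

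Perilipin-3, which coats nascent droplets, had 25.8, 79.5 and 36.3 FPKM with Limnodrilus and 4.07, 4.47 and 24.9 FPKM with commercial feed at LOC117971430 (2.27; limma adjusted p = 0.0638). At LOC117415352 it had 2.44, 10.8 and 4.0 FPKM with Limnodrilus and 0.722, 0.15 and 1.66 FPKM with commercial feed (1.76; limma adjusted p = 0.0576). Neither locus passed. At both, Limnodrilus lay above commercial feed without overlap, as for 28.4% of all features. The perilipin-1 loci LOC117428569 and LOC117429138, of the coat protein typical of adipocytes, averaged 1.4 and 1.12 FPKM over all libraries and did not pass (limma adjusted p = 0.453 and 0.46). Adipocyte markers summed to 12.3, 8.01 and 5.81 FPKM with Limnodrilus and to 3.18, 8.65 and 8.35 FPKM with commercial feed over 9 loci.

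All 4 SAR1 loci rose, with no overlap between the diets. Of all features 14% were called higher, and 28.4% had all Limnodrilus libraries above all commercial feed libraries. SAR1b, the form whose loss causes chylomicron retention disease in human, had 104.4, 120.6 and 113.4 FPKM at LOC117413507 (NC_081211.1:30283408-30288801) with Limnodrilus, against 12.3, 22.2 and 24.9 FPKM with commercial feed (2.51 ± 0.369; limma adjusted p = 0.00938). LOC117431050, also SAR1b, had 31.7, 40.0 and 29.1 FPKM with Limnodrilus, against 6.69, 7.67 and 8.79 FPKM with commercial feed (1.98 ± 0.309; limma adjusted p = 0.0106). SAR1a, the paralogue of SAR1b in the COPII coat, showed the same separation at both of its loci. LOC117414490 had 29.0, 34.2 and 30.9 FPKM with Limnodrilus, against 7.52, 6.98 and 7.27 FPKM with commercial feed (1.97 ± 0.288; limma adjusted p = 0.00934). LOC117418450 had 24.2, 29.0 and 26.9 FPKM with Limnodrilus, against 6.27, 6.13 and 4.76 FPKM with commercial feed (2.05 ± 0.296; limma adjusted p = 0.00933). The highest library of a diet exceeded the lowest by 1.16 to 1.37 times with Limnodrilus and by 1.08 to 2.02 times with commercial feed. For the exchangeable apolipoproteins these ratios were 2.08 to 9.26 with Limnodrilus and 10.4 to 171.0 with commercial feed, the commercial feed ratios over the 8 loci above 0 in every commercial feed library.

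Commercial feed library 3 did not stand apart at the SAR1 loci. The SAR1 sum was 189.3, 223.8 and 200.4 FPKM with Limnodrilus and 32.8, 43.0 and 45.7 FPKM with commercial feed. LOC117413507 kept its call with each library left out in turn (largest limma adjusted p 0.0495). The SAR1a loci lost theirs without Limnodrilus library 3 (0.0513 at LOC117414490 and 0.0509 at LOC117418450), and LOC117431050 without Limnodrilus library 1 or 3 (0.0527 and 0.0506).

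Receptors of lipid uptake had 4 loci, of which 3 were tested and 1 rose (33.3%, against 14% of all features). NPC1L1, the brush-border cholesterol transporter, rose at LOC117969842, with 18.4, 56.5 and 21.4 FPKM with Limnodrilus, against 1.52, 1.19 and 12.7 FPKM with commercial feed (2.79 ± 0.762; limma adjusted p = 0.0435). LOC117397714 had 22.9, 69.3 and 27.3 FPKM with Limnodrilus and 2.4, 5.03 and 24.4 FPKM with commercial feed, with overlap, and did not pass (2.17; limma adjusted p = 0.0892). In each Limnodrilus library the ratio of LOC117397714 to LOC117969842 was close to the others, at 1.24, 1.23 and 1.27, against 1.59, 4.23 and 1.91 with commercial feed. The call of LOC117969842 was lost without any library other than commercial feed library 3 (limma adjusted p of 0.0904 to 0.149), and also with median-of-ratios scaling (0.0594) and without the filter on level (0.0792). With the replicate number as a block LOC117969842 lost its call too. Its Limnodrilus mean was 19.9 FPKM without library 2, against 32.1 FPKM with it, and its commercial feed mean was 1.35 FPKM without library 3, against 5.15 FPKM with it.

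Scavenger receptor class B member 1, which takes cholesteryl ester from high-density lipoprotein, lay the other way. LOC117973389 had 1.91, 1.85 and 2.35 FPKM with Limnodrilus and 2.77, 6.75 and 86.9 FPKM with commercial feed. LOC117973389 thus had all commercial feed libraries above all Limnodrilus libraries, as 11.5% of all features did. It did not pass (-2.18 ± 1.03; limma adjusted p = 0.18), and its commercial feed mean was 4.76 FPKM without library 3, against 32.1 FPKM with it.

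Products that bear the name apolipoprotein but belong to other families (L, M and D) had 13 loci, of which 8 were tested, 1 fell and 7 missed the threshold. Of all features 3.64% were called lower. Their median log2 fold change was 0.02. The most abundant, apolipoprotein L3-like LOC131727654, had 54.4, 30.8 and 60.2 FPKM with Limnodrilus and 11.2, 54.0 and 77.4 FPKM with commercial feed, and did not pass (0.34 ± 0.696; limma adjusted p = 0.76). Apolipoprotein L4-like LOC117965187 (NC_081223.1:2172509-2201022) fell, with 3.53, 1.78 and 5.91 FPKM with Limnodrilus, against 8.09, 21.9 and 21.5 FPKM with commercial feed (-1.92 ± 0.501; limma adjusted p = 0.0384). Its call was lost without any library other than commercial feed library 1 (0.0568 to 0.132), and also with TPM scaling (0.0515) and without the filter on level (0.0667). With the replicate number as a block LOC117965187 lost its call too. The family is known in human for the trypanosome-killing APOL1. Without these 13 loci, 17 of 42 tested members rose (40.5%, against 14% of all features) and the median was 2.12.

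**Figure D3:**
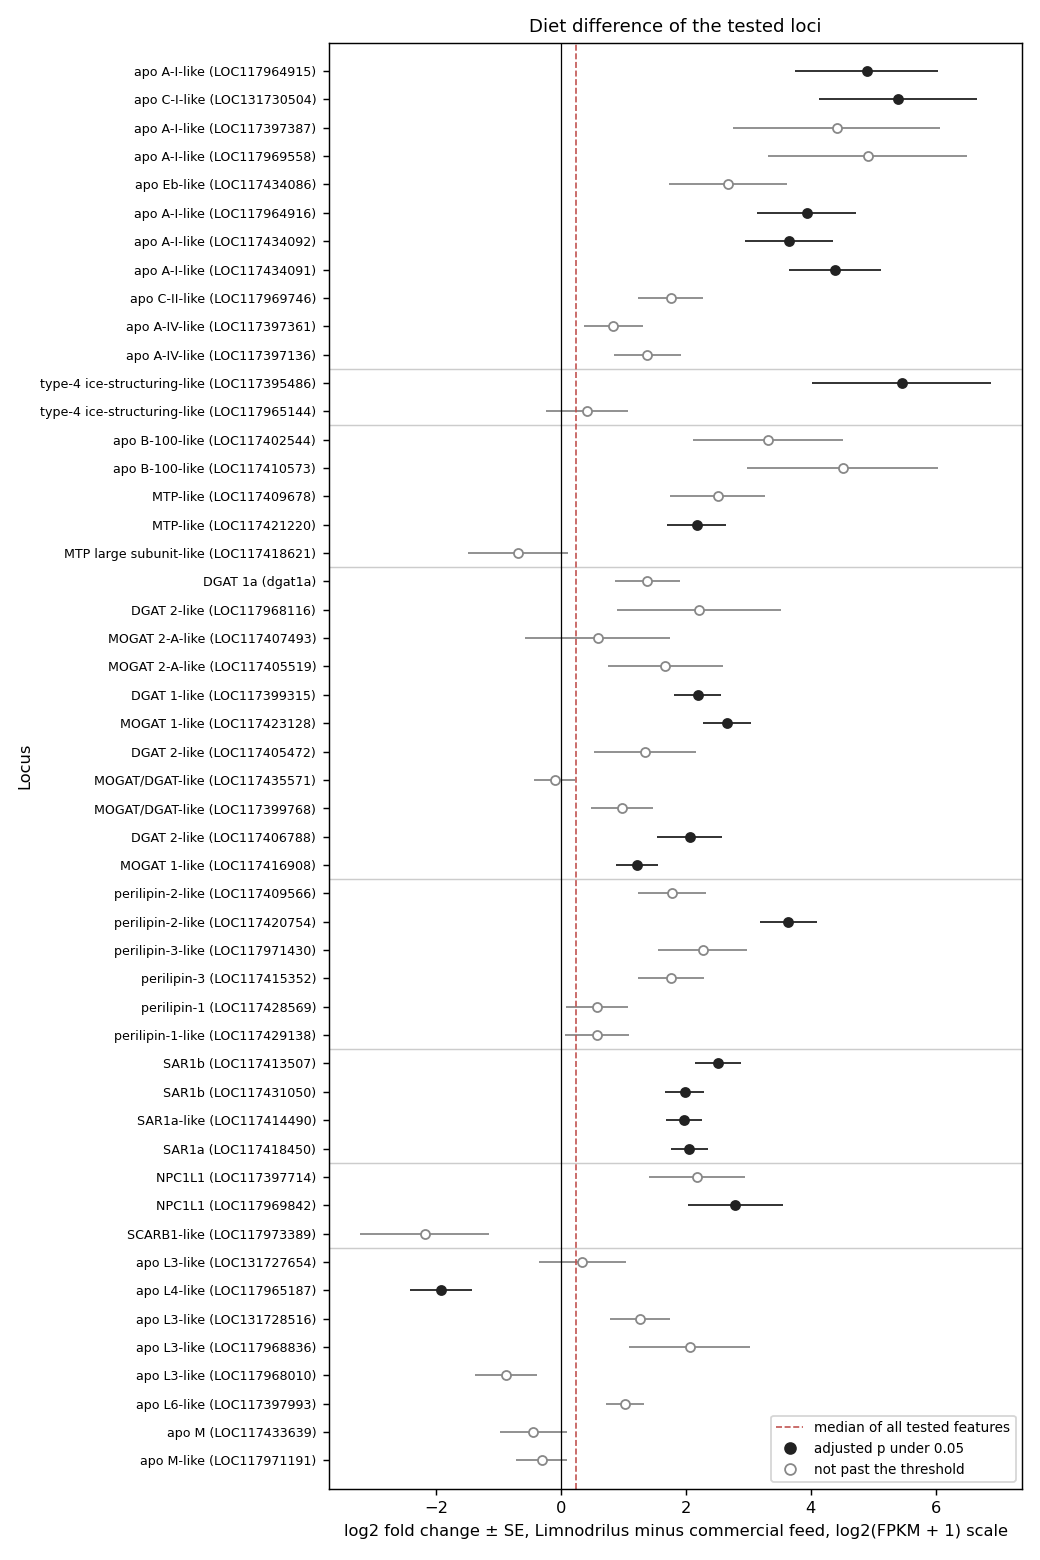
Log2 fold change (Limnodrilus minus commercial feed, on log2(FPKM + 1)) of each tested member with its SE, grouped by role, where the dashed line marks the median of all features, 0.24. SAR1 loci lie between 1.97 and 2.51 with short bars, exchangeable apolipoproteins reach 5.39 with long ones, and the other apolipoprotein families scatter around 0.02.

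**Figure D4:**
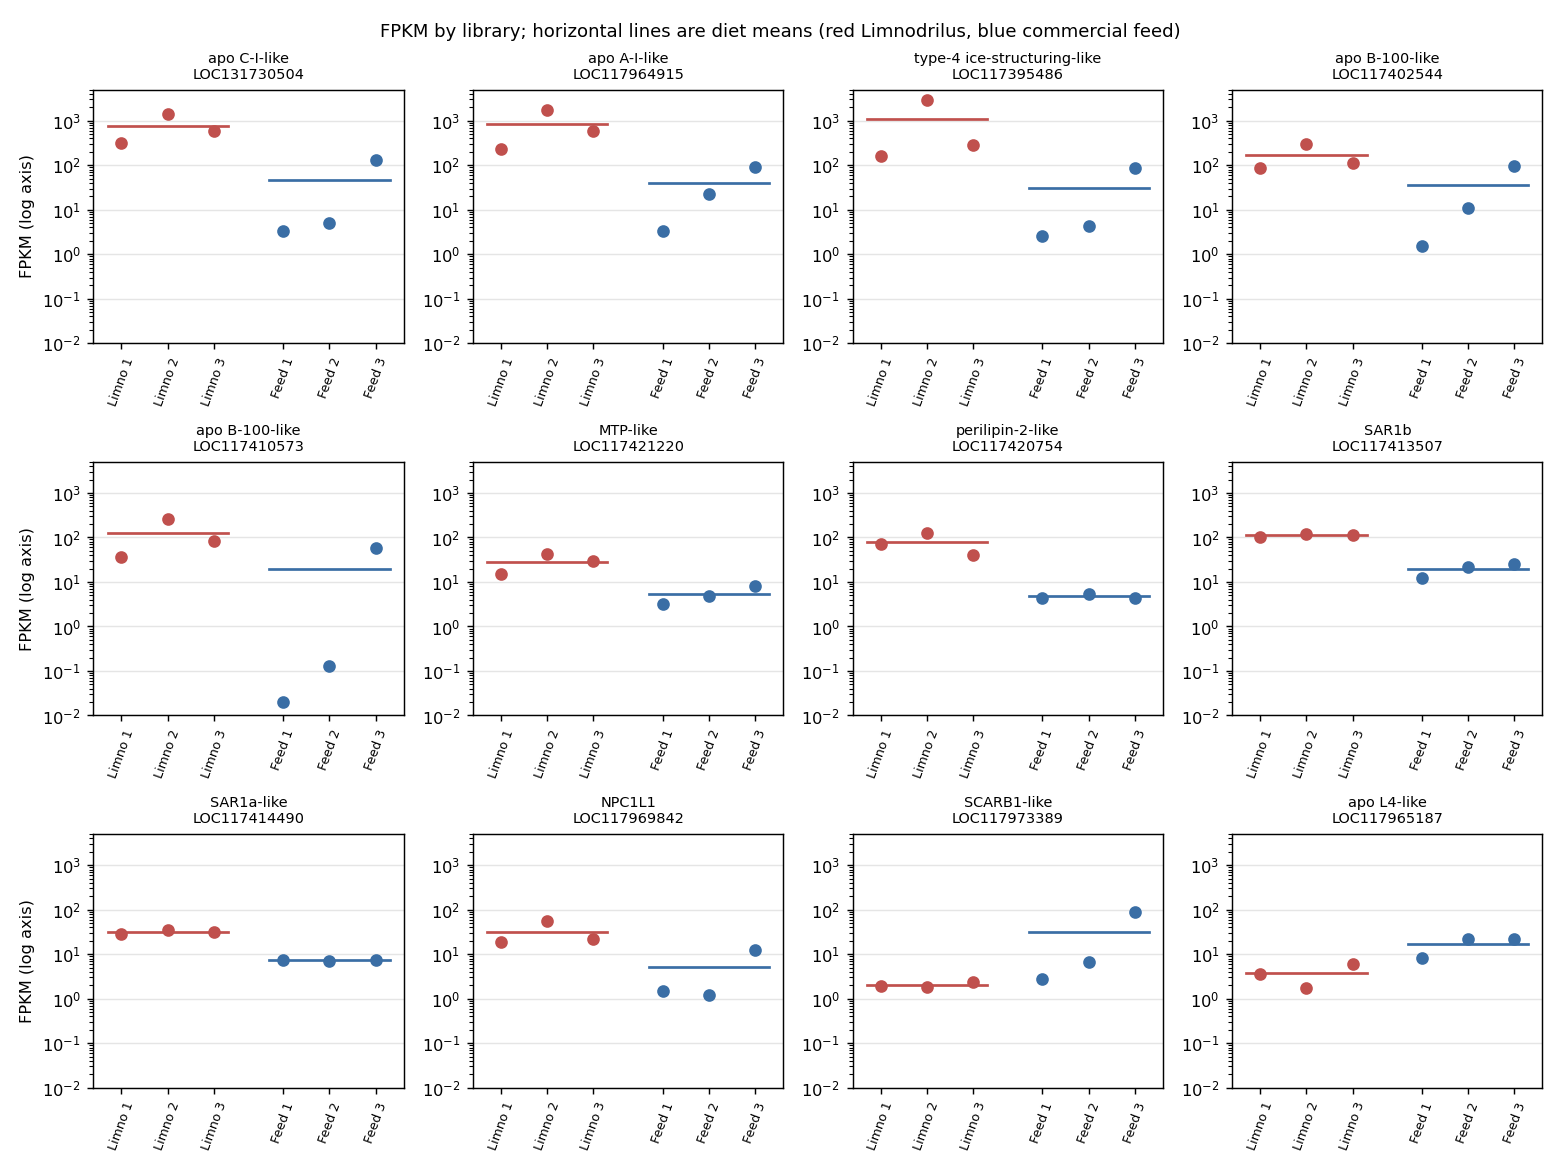
FPKM of 12 loci in each library on a log axis, Limnodrilus in red (Limno, left) and commercial feed in blue (Feed, right), with lines at the diet means. Commercial feed library 3 lies above the other commercial feed libraries at the apolipoprotein A-I, C-I, B-100 and ice-structuring loci, and close to them at perilipin-2-like LOC117420754 and SAR1a-like LOC117414490.

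Since enterocyte markers moved with many members, each role was also set against the brush-border sum of the same library. Exchangeable apolipoproteins amounted to 48.1, 72.0 and 56.8 FPKM per 100 FPKM of brush-border markers with Limnodrilus and to 26.4, 22.1 and 24.4 with commercial feed, where library 3 no longer stood apart. Ice-structuring loci gave 7.09, 30.7 and 7.28 with Limnodrilus and 2.7, 1.16 and 2.45 with commercial feed. Both roles thus kept the diets apart on this sum, though the loci that made up most of it differed between libraries. Against single loci this need not hold. Villin-1 LOC117426246 had 62.8 FPKM in Limnodrilus library 1 and 2.12 FPKM in commercial feed library 2. Exchangeable apolipoproteins summed to 1089.2 and 96.4 FPKM there. Against this locus, named after its values were seen, the exchangeable apolipoproteins of the diets overlapped. The other roles did not do so in that direction: apolipoprotein B and MTP together gave 7.36, 6.85 and 6.6 with Limnodrilus and 15.1, 5.14 and 5.09 with commercial feed. For SAR1 the values were 8.36, 2.35 and 5.06 with Limnodrilus and 34.8, 9.87 and 1.28 with commercial feed, and for acyltransferases 5.35, 2.72 and 4.05 with Limnodrilus and 21.4, 9.8 and 5.43 with commercial feed. Most of the brush-border sum in the Limnodrilus libraries came from 1 of 3 intestinal fatty acid-binding protein loci, LOC117409347, itself of a lipid carrier. It had 1294.5, 7430.8 and 2962.4 FPKM with Limnodrilus and 31.5, 93.5 and 749.5 FPKM with commercial feed. The exchangeable apolipoprotein sum lay below that locus in every Limnodrilus library and in commercial feed library 1. In commercial feed libraries 2 and 3 that sum lay above the locus. Against the 22 brush-border loci left without these 3, chosen after the values were seen, exchangeable apolipoproteins gave 112.6, 331.3 and 227.6 with Limnodrilus and 42.7, 28.2 and 30.9 with commercial feed. Acyltransferases, all lower with Limnodrilus on the first measure, overlapped on this one, with 12.5, 12.5 and 16.3 with Limnodrilus and 34.7, 12.5 and 6.88 with commercial feed. Uptake receptors likewise gave 1.93, 1.35 and 1.3 with Limnodrilus and 7.09, 3.02 and 3.56 with commercial feed against all brush-border loci, but overlapped against the 22, with 4.52, 6.22 and 5.21 with Limnodrilus and 11.5, 3.85 and 4.51 with commercial feed. The part of enterocyte content in the member calls was not tested.

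Liver, the main source of plasma apolipoproteins, was considered through 25 hepatocyte marker loci. They summed to 113.9, 20.3 and 24.5 FPKM with Limnodrilus and to 17.5, 66.9 and 60.4 FPKM with commercial feed. These loci did not move together. The fibrinogen chain loci fga, fgb and fgg, of plasma clotting proteins made by hepatocytes, lay at 9.43 to 9.96 FPKM in Limnodrilus library 1 and at most 0.769 FPKM in any other library. Fibrinogen alpha chain-like LOC117420655 was instead highest in commercial feed library 3, at 1.7 FPKM, against 0.369 FPKM in Limnodrilus library 1. Serotransferrin-2 LOC117423387, of a plasma iron carrier, had 7.5, 0.619 and 2.53 FPKM with Limnodrilus and 2.93, 23.5 and 23.9 FPKM with commercial feed. Prothrombin f2 had 7.73, 6.69 and 7.84 FPKM with Limnodrilus and 3.33, 21.3 and 14.4 FPKM with commercial feed. Further copies of both followed fga, fgb and fgg, highest in Limnodrilus library 1. Serotransferrin-2 LOC117417370 had 5.24 FPKM there and at most 0.169 FPKM elsewhere, and prothrombin-like LOC117434678 had 9.46 and at most 2.01 FPKM. Hemopexin-like LOC117406487 (13.9 and at most 1.05 FPKM) and fetuin-B-like LOC117422929 (18.4 and at most 1.7 FPKM) did likewise. The marker loci named here were chosen after their values were seen, and the part of liver RNA in the member differences was not tested.

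**Figure D5:**
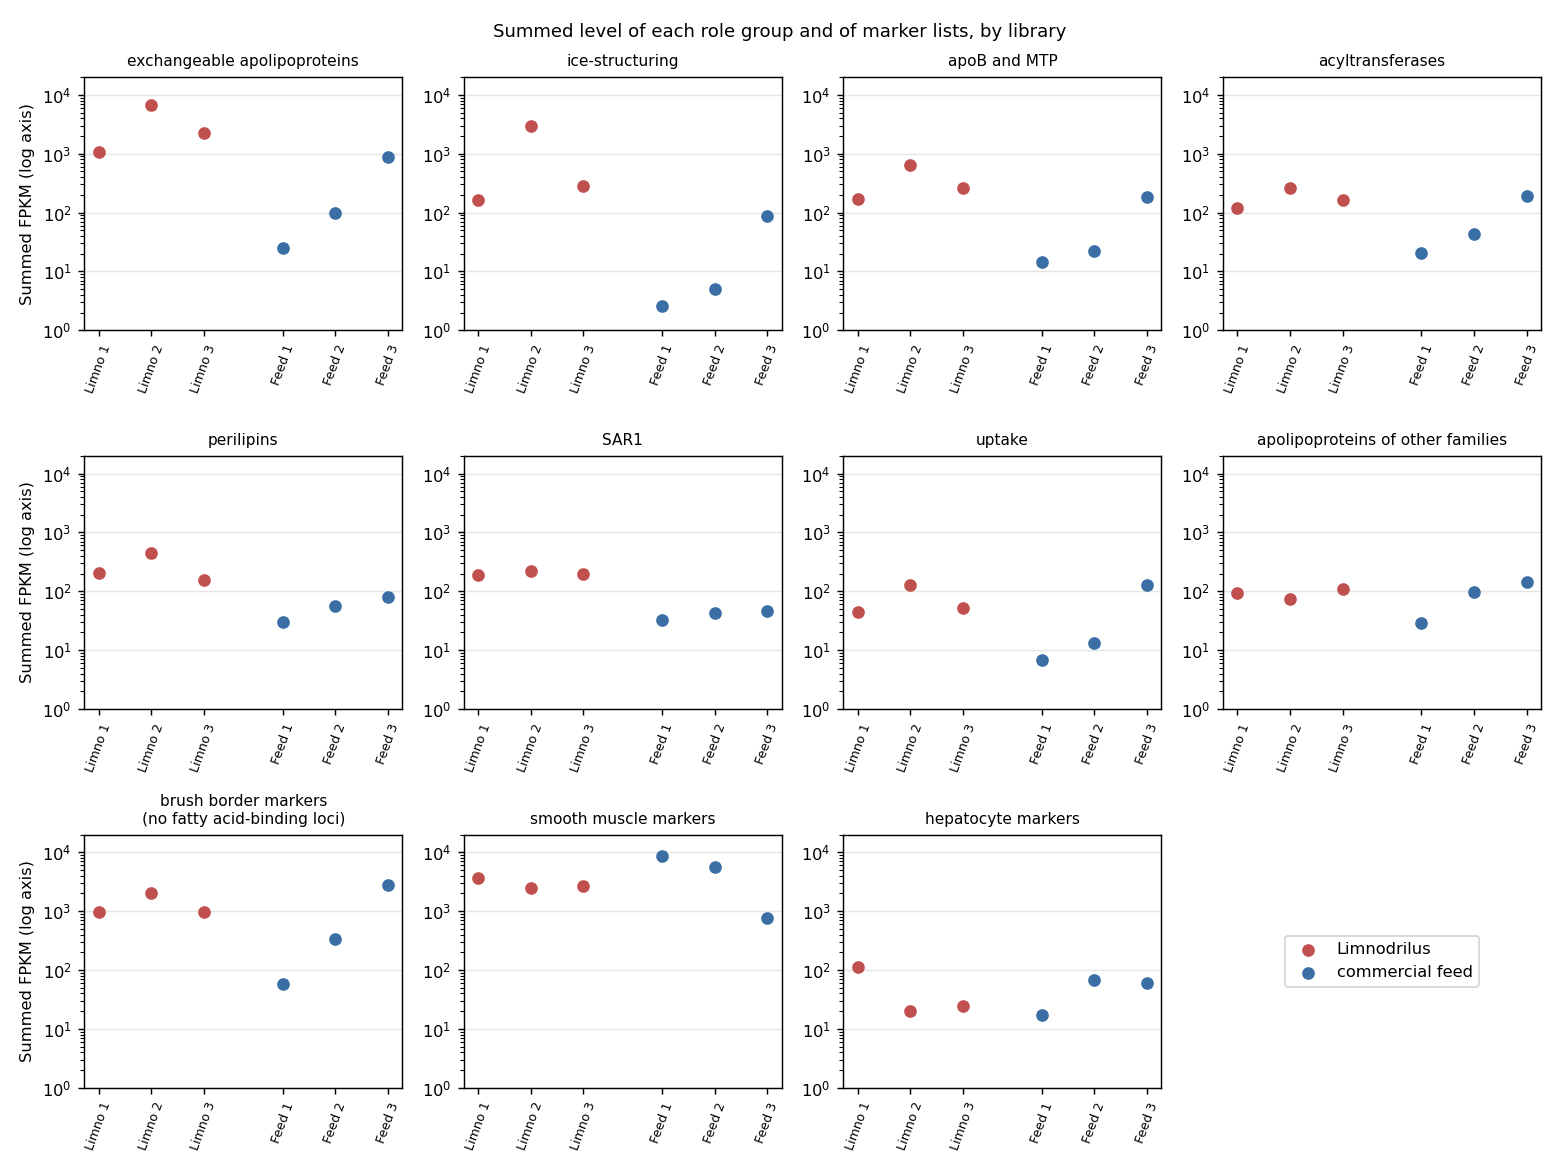
Summed FPKM of each role and of 3 marker lists in each library, on a log axis, with Limnodrilus in red (Limno, left) and commercial feed in blue (Feed, right). The SAR1 sums form 2 tight groups, at 189.3 to 223.8 FPKM with Limnodrilus and 32.8 to 45.7 FPKM with commercial feed, while the exchangeable apolipoprotein and brush-border sums differ widely among the commercial feed libraries.

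Other genes of the pathway, a list of 107 loci for fatty acid activation, glycerolipid synthesis, droplet growth, lipoprotein export and clearance, gave further counts: of 73 tested, 19 rose, 2 fell and 52 missed the threshold. That is 26.0% of those tested called higher, against 14% of all features, of which 3.64% were called lower. Their median log2 fold change was 1.0. An acylglycerolphosphate acyltransferase alpha-like locus, LOC117422272, which makes phosphatidic acid, had 29.3, 41.1 and 51.7 FPKM with Limnodrilus, against 3.88, 5.02 and 4.88 FPKM with commercial feed (2.87 ± 0.336; limma adjusted p = 0.00758). The fatty acid-activating ligase 4-like LOC117412232 had 119.0, 135.8 and 53.9 FPKM with Limnodrilus, against 1.92, 1.76 and 9.94 FPKM with commercial feed (4.44 ± 0.624; limma adjusted p = 0.00903). Protein disulfide-isomerase LOC117423582, of a folding enzyme that in mammals is also the small subunit of the MTP complex, had 56.7, 189.8 and 102.1 FPKM with Limnodrilus, against 11.6, 7.82 and 8.08 FPKM with commercial feed (3.38 ± 0.479; limma adjusted p = 0.00903). The same-named locus p4hb differed less, with 40.9, 64.1 and 62.8 FPKM with Limnodrilus, against 18.2, 21.9 and 18.3 FPKM with commercial feed (1.45 ± 0.335; limma adjusted p = 0.0264). LOC117422272, LOC117412232 and LOC117423582 kept their calls with each library left out in turn, though the commercial feed mean of LOC117412232 was 1.84 FPKM without library 3, against 4.54 FPKM with it. At LOC117423582 commercial feed library 3 was not the highest of its diet.

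The droplet protein gene cideb, which in mouse liver takes part in lipidation of lipoproteins, had 10.5, 31.9 and 19.4 FPKM with Limnodrilus, against 1.11, 0.946 and 2.49 FPKM with commercial feed (3.02 ± 0.458; limma adjusted p = 0.0101). The cholesterol-esterifying enzyme gene soat1 had 12.3, 9.48 and 9.15 FPKM with Limnodrilus, against 1.7, 2.61 and 2.54 FPKM with commercial feed (1.79 ± 0.299; limma adjusted p = 0.0123). GPAT3-like LOC131737090, of the first step of glycerolipid synthesis, had 10.7, 25.9 and 11.4 FPKM with Limnodrilus, against 1.57, 0.0526 and 1.79 FPKM with commercial feed (3.01 ± 0.505; limma adjusted p = 0.0123). The more abundant GPAT3-like LOC117409484 did not pass (1.33 ± 0.425; limma adjusted p = 0.0686). It had 64.3, 73.9 and 53.2 FPKM with Limnodrilus and 14.2, 38.3 and 27.3 FPKM with commercial feed. At these loci Limnodrilus lay above commercial feed without overlap, as for 28.4% of all features. The 2 that fell, named after their values were seen, were the fatty acid-activating ligase 1 LOC117397679 (-1.72; limma adjusted p = 0.0169) and the fatty acid transport protein 1-like LOC131706600 (-1.08; limma adjusted p = 0.039). LOC117397679 had 0.828, 0.801 and 0.474 FPKM with Limnodrilus, against 3.63, 6.95 and 3.69 FPKM with commercial feed, and LOC131706600 had 4.01, 3.91 and 4.48 FPKM with Limnodrilus, against 10.6, 8.37 and 10.8 FPKM with commercial feed. Calls were lost without any 1 Limnodrilus library for soat1, LOC117397679 and LOC131706600 (limma adjusted p of 0.0531 to 0.152), without Limnodrilus library 2 for LOC131737090 (0.0532) and at the threshold without library 3 (0.05), and without commercial feed library 1 or 2 for LOC131706600 (0.0669 and 0.0616).

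The 17 members under a mean of 1 FPKM were not tested. Of these 6 were at 0 in all 6 libraries, and the other 11 had means up to 0.77 FPKM, next to 1.12 FPKM for the lowest member tested. For a feature of 1 kb, 3 reads equal 0.153 to 0.216 FPKM with Limnodrilus and 0.286 to 0.302 FPKM with commercial feed, so levels below these could not be told from 0. Among the untested were the second scavenger receptor class B member 1-like locus LOC117962961, perilipin-2 loci LOC131703271 and LOC117395210, and the DGAT1-like loci LOC131698767, LOC117425628 and LOC131698721.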

How the data were processed

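The authors deposited FPKM values, fragments scaled to feature length and library total, for 82023 features in 6 gut libraries in 1 table with coordinates, lengths and product names. Per the labels' protocols, poly(A) RNA of integrity number above 7.0 was captured, and the kit digests the second cDNA strand. The tool and build listed, per the submitters' processing notes, are cutadapt 1.9 and the mouse build mm10, whereas the table uses RefSeq sequence names that do not belong to it. For the aligner, assembly, counter, strand use and the handling of multiply matching reads, nothing is given in the sources used here. Coordinates are as the deposited table gives them.

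FPKM times length came out as whole reads, within 0.1, for 100% of values up to 20 reads and for 93.5% to 96.3% of all values per library, which gave the depths. The 23644 features averaging 1 FPKM or more were compared on log2(FPKM + 1) with limma 3.58.1 in R 4.3.3 (limma-trend, 2-sided, Benjamini-Hochberg over all of them, threshold 0.05). The procedure was also run on simulated data with noise drawn independently for each feature. That simulation held no shifts shared by many features of a library, so it cannot show how the procedure handles them. Fold changes on the log2(FPKM + 1) scale understate those of low features. With 3 libraries per diet, an exact permutation p cannot be smaller than 0.1. Floors of 3 reads cover counting error only, while the SE values come from the spread between libraries.

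Members were grouped by role from the product name. In each role the text names every called member, up to 6 by smallest p, and the most abundant one, and the others are summarised or, chosen after their values were seen, named to show same-named copies. Named members of the other pathway list are up to 6 of smallest p, and, chosen after their values were seen, those that fell and same-named copies. Members, roles, marker lists and the pathway list were chosen with earlier results of these data known. Endothelial, erythrocyte, macrophage and exocrine pancreas markers were also summed. Alternatives were another pseudocount, other filters, median-of-ratios and TPM scaling, limma-voom on the recovered reads, the replicate number as a block, and leaving out libraries.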

Additional observations from a re-analysis of the deposited data

How the results depend on the processing

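Against 17 members higher and 1 lower, a pseudocount of 0.1 gave 17 and 1, a minimum mean of 5 FPKM 15 and 1, median-of-ratios scaling 13 and 1, TPM scaling 18 and 0, limma-voom on recovered reads 15 and 1, and no filter 11 and 0 of 61 members tested. In the same order 12.6%, 16.8%, 9.45%, 14.4%, 11.3% and 7.19% of all features were called higher, against 14%. Leaving out 1 library gave 3 to 35 higher and 0 to 1 lower, and dropping both commercial feed libraries 1 and 2 gave 8 higher and 1 lower, with the lone library assumed to vary like the others. Where none was lower by limma, 1 to 2 were at an unadjusted p under 0.05, and limma-voom called 1. Apolipoprotein L3-like LOC131727654, which did not pass, ranged from -0.46 (without commercial feed library 1) to 0.88 (without library 3) with 1 library left out, and was -0.72 without commercial feed libraries 1 and 2. LOC117423128, LOC117420754 and LOC117413507 kept their calls in all 14 alternatives. The causes were not tested.

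With the replicate number as a block, 17 members were higher and 0 lower, among 8.91% and 2.11% of all features, and 15 of the 18 calls were shared. Deviations of same-numbered libraries correlated at 0.187, -0.069 and 0.075, and Limnodrilus library 2 correlated best with commercial feed library 3 (0.133), so the numbers were not taken to pair the libraries.

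Over all features 4182 calls became 2625 with a minimum mean of 5 FPKM, 2607 with the block and 638 to 6295 with 1 library left out. Depth limits the low loci: differences under about 3 reads could not be seen, and depth differed between the diets.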

Other observations

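Same-named loci of the members formed 17 pairs of the most abundant copies, of which 10 had the same copy higher in all 6 libraries. Of the 14 with a ratio in every library, 5 had ratios that did not overlap between the diets. Besides perilipin-2 and NPC1L1, these were SAR1b, apolipoprotein L3-like and a monoacylglycerol/diacylglycerol acyltransferase-like pair. No such share was taken over pairs of other genes. Of all single features tested, 28.4% had every Limnodrilus library above every commercial feed library, and 11.5% the reverse. LOC117413507 over LOC117431050, both SAR1b, was 3.29, 3.02 and 3.89 with Limnodrilus and 1.84, 2.9 and 2.83 with commercial feed. LOC131727654 over LOC131728516, both apolipoprotein L3-like, was 3.86, 3.31 and 3.66 with Limnodrilus and 4.76, 12.7 and 7.81 with commercial feed. LOC117435571 over LOC117399768, the acyltransferase-like pair, was 1.08, 1.46 and 1.31 with Limnodrilus and 22.1, 3.63 and 1.98 with commercial feed. The pairs lie on different sequences, and reads shared between copies could move such ratios, which was not tested.

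Several members sat on the same pairs of chromosome sequences. A perilipin-2-like and an MTP-like locus lay on NC_081189.1 and another of each on NC_081190.1, and an A-IV-like and an A-I-like locus on NC_081227.1 and on NC_081228.1.

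Marker lists of other cell types were also summed. Exocrine pancreas markers, over 31 loci, summed to 918.8, 597.7 and 1210.6 FPKM with Limnodrilus and to 63.6, 1615.6 and 3167.9 FPKM with commercial feed. Most of this sum came from pancreatic triacylglycerol lipase-like LOC117417614, at 612.6, 544.3 and 735.4 against 52.7, 1490.1 and 2957.4 FPKM. The loci did not move together, as 2 named after their values were seen show. Lipase-like LOC117418369 had 19.6, 16.7 and 30.2 against 0.637, 44.0 and 55.8 FPKM. Trypsin-3-like LOC117429150 had 49.1, 5.02 and 62.2 against 1.69, 10.3 and 8.75 FPKM. Endothelial markers summed to 27.0, 16.7 and 35.1 FPKM with Limnodrilus and to 16.9, 44.7 and 25.8 FPKM with commercial feed. Macrophage markers summed to 141.8, 136.3 and 110.3 FPKM with Limnodrilus and to 17.5, 90.3 and 60.0 FPKM with commercial feed. Most of these 90 loci bear the name macrophage mannose receptor 1, and 25 of the 90 were at 0 in all 6 libraries. Erythrocyte markers summed to 183.0, 350.2 and 91.5 FPKM with Limnodrilus and to 7.51, 572.0 and 197.9 FPKM with commercial feed. Their part in the member differences was not tested.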
